A study of Trametes versicolor with 12 samples.

Results

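HTP1, HTP2 and HTP3 are the genes of Trametes versicolor that carry a symbol for haem-thiolate peroxidase in the RefSeq gene table of the organism. They were taken by their protein numbers, 26967, 154915 and 23785, as 3 of the 14296 gene models in the deposited tables. All 3 models were present in every library and passed the filter on low counts. RNA sequencing of whole mycelium was used in strains BRFM1218 and 1956-1252, each grown on agar with 4% malt and sampled at a culture age of 2 or 4 weeks. Each of the 4 groups has 3 libraries, 1 per culture, and the medium was the same throughout. Each strain difference therefore compares 1 strain with 1 other on a rich medium, and no wood-grown culture is included.

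Haem-thiolate peroxidases, also called unspecific peroxygenases, hold a haem whose iron is bound by the sulphur of a cysteine, as in cytochromes P450. They use hydrogen peroxide, with no need for a reductase, to insert an oxygen atom into unactivated C-H and C=C bonds of aromatic and aliphatic compounds. The best studied members are secreted by the fungi Cyclocybe aegerita and Leptoxyphium fumago. They are unrelated in sequence to the class II peroxidases of white-rot fungi (lignin, manganese and versatile peroxidases), which act on lignin through a histidine-bound haem.

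The 12 libraries held 31763162 to 74647672 reads assigned to genes. The first principal component held 87.1% of the variance between libraries and the second 5.99%. HTP1, HTP2 and HTP3 took between 177 and 17377 reads in a library. The smallest of these counts, 177 reads, has an exact 95% Poisson interval of 151.9 to 205.1, which covers counting error only. Of the 125155 reads given to the 3 genes over all libraries, 3 were not unique, so the genes shared almost no reads with one another or with other models.

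Between genes, levels were compared as deposited RPKM (reads scaled to the length of the gene model and to the size of the library). The lengths of the gene models implied by the RPKM were 1012 bases for HTP1, 1156 for HTP2 and 912 for HTP3. In BRFM1218 at 2 weeks the order was HTP1, HTP2 and HTP3. HTP1 was at 24.2, 25.1 and 25.9 RPKM in replicates 1 to 3. HTP2 was at 10.8, 14.4 and 13.1 RPKM, and HTP3 at 6.11, 6.42 and 8.32 RPKM. No library of one gene overlapped those of another in this group. At 4 weeks HTP1 was instead the lowest of the 3 in BRFM1218. HTP2, at 54.4, 51.9 and 55.7 RPKM, stood above HTP3, at 49.9, 50.1 and 50.1 RPKM, and both were above HTP1, at 24.6, 24.9 and 29.8 RPKM. HTP2 exceeded HTP3 by a small margin, from 1.04-fold to 1.11-fold within a library.

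In 1956-1252 the order was HTP1, HTP3 and HTP2 at both ages. At 2 weeks HTP1 was at 111, 111 and 114 RPKM, HTP3 at 29.8, 31.9 and 29.6 RPKM, and HTP2 at 9.83, 10.8 and 9.13 RPKM. At 4 weeks HTP1 reached 289, 291 and 288 RPKM, HTP3 79.8, 87.1 and 84.1 RPKM, and HTP2 19.5, 20.04 and 20.9 RPKM. HTP1 ranked first in RPKM among the 42 genes with a symbol, laccases and all other named peroxidases included, in each of the 3 libraries of 1956-1252 at 4 weeks. In BRFM1218 it ranked 6 at 2 weeks and 8 at 4 weeks. Among all gene models, HTP1 lay between the 96.37 and 96.45 percentiles of RPKM in 1956-1252 at 4 weeks, against 69.2 to 73.0 in BRFM1218 at that age.

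**Figure D1:**
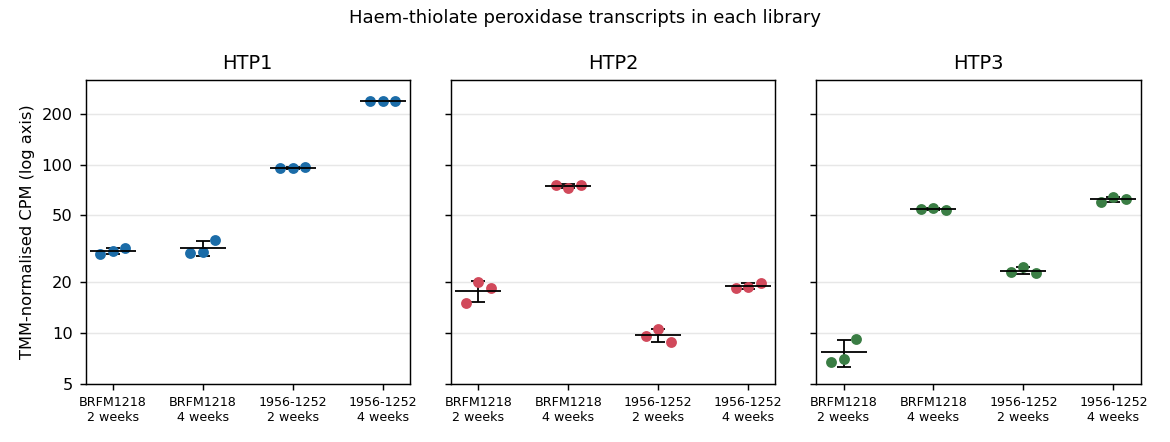
Level of each gene in each library (points) as TMM-normalised CPM on a log axis, with the mean (wide bar) and SD (capped line) of the 3 libraries per group. HTP1 is level with age in BRFM1218 (29.6 to 35.7 CPM) and reaches 238 to 240.0 CPM in 1956-1252 at 4 weeks, while HTP2 is highest in BRFM1218 at 4 weeks (72.3 to 76.2 CPM).

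Summed over the 3 genes, RPKM was 44.8 ± 3.23 (SD, n = 3 here and below) in BRFM1218 at 2 weeks and 130.5 ± 4.58 at 4 weeks. It was 152 ± 1.54 in 1956-1252 at 2 weeks and 393 ± 4.75 at 4 weeks. The sum at 4 weeks was 2.91 times that at 2 weeks in BRFM1218 and 2.58 times in 1956-1252, while the make-up of the sum moved with age in BRFM1218 far more than in 1956-1252. HTP1 made up 56.0 ± 2.40% of the sum in BRFM1218 at 2 weeks and 20.2 ± 1.56% at 4 weeks. Its share was 73.5 ± 1.25% and 73.6 ± 0.727% at the same ages in 1956-1252. HTP2 went from 28.5 ± 2.64% to 41.4 ± 0.712% of the sum in BRFM1218, and was at 6.51 ± 0.525% and 5.13 ± 0.168% in 1956-1252. HTP3 went from 15.5 ± 1.90% to 38.4 ± 1.31% in BRFM1218, against 19.98 ± 0.734% and 21.3 ± 0.68% in 1956-1252. Among these 3 genes, most of the summed RPKM at 4 weeks came from HTP2 and HTP3 in BRFM1218 and from HTP1 in 1956-1252.

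**Figure D2:**
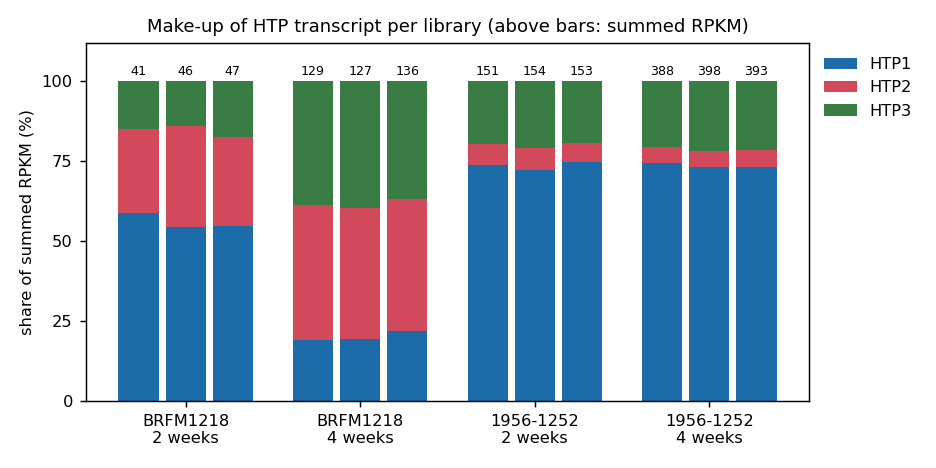
Share of HTP1, HTP2 and HTP3 in their summed RPKM (%), 1 bar per library in replicate order, with the summed RPKM printed above each bar. The HTP1 share is 19.1 to 22.0% in the BRFM1218 libraries at 4 weeks and 72.2 to 74.7% in the 6 libraries of 1956-1252.

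Across libraries, levels were compared as CPM (the count scaled to library size), normalised by TMM, a trimmed mean of log ratios, and differences were tested with edgeR's quasi-likelihood test in a fit of all 12 libraries. Adjusted p-values are by the Benjamini-Hochberg method over 12648 tested genes, and a gene with an adjusted p under 0.05 is called. Because whole mycelium was sequenced, fewer cells of a kind and less RNA per cell cannot be told apart. The first question was how the genes changed with culture age within a strain.

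In BRFM1218, HTP2 and HTP3 rose between 2 and 4 weeks and HTP1 did not pass the test. HTP3 was at 6.72, 7.04 and 9.26 CPM at 2 weeks and at 54.7, 55.0 and 54.0 CPM at 4 weeks. Every 4-week library lay far above every 2-week library. The rise was 7.08-fold (95% interval 6.15 to 8.15, log2 fold change 2.82, SE 0.10, edgeR adjusted p = 1.9e-13), which ranks 120 among all tested genes ordered from the largest rise down, and 238 when falls of the same size are counted too. HTP2 was at 15.1, 20.1 and 18.5 CPM at 2 weeks and at 75.6, 72.3 and 76.2 CPM at 4 weeks, again with no overlap. Its rise was 4.17-fold (95% interval 3.64 to 4.77, edgeR adjusted p = 7.87e-12), with ranks of 307 and 612 on the same orders. HTP1 was at 29.6, 30.6 and 32.0 CPM at 2 weeks and at 29.9, 30.4 and 35.7 CPM at 4 weeks, and these libraries overlapped. The ratio was 1.04 (95% interval 0.944 to 1.14, edgeR adjusted p = 0.50). The interval leaves out a rise as large as that of HTP2 or HTP3. The highest of the HTP1 values came from replicate 3 at 4 weeks, without which the log2 fold change was -0.03 (adjusted p = 0.633). The 2 calls among the 3 genes are to be read against a background in which 60.4% of all tested genes were called in this comparison, 33% higher and 27.4% lower.

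In 1956-1252 all 3 genes rose with age. HTP1 was at 95.4, 95.1 and 97.3 CPM at 2 weeks and at 240.0, 239 and 238 CPM at 4 weeks. HTP3 was at 23.1, 24.7 and 22.7 CPM at 2 weeks and at 59.7, 64.5 and 62.7 CPM at 4 weeks. HTP2 was at 9.64, 10.6 and 8.89 CPM at 2 weeks and at 18.5, 18.8 and 19.8 CPM at 4 weeks. The ages did not overlap in any of the 3 genes, although HTP2 stayed the lowest of the 3. The rises were 2.49-fold for HTP1 (95% interval 2.29 to 2.71, edgeR adjusted p = 9.07e-12), 2.65-fold for HTP3 (2.35 to 2.99, adjusted p = 4.09e-10) and 1.96-fold for HTP2 (1.71 to 2.25, adjusted p = 1.77e-07). Among all tested genes, 48.6% were called with age in this strain, 25.1% higher and 23.4% lower. HTP3, HTP1 and HTP2 ranked 357, 408 and 741 from the largest rise down.

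**Figure D3:**
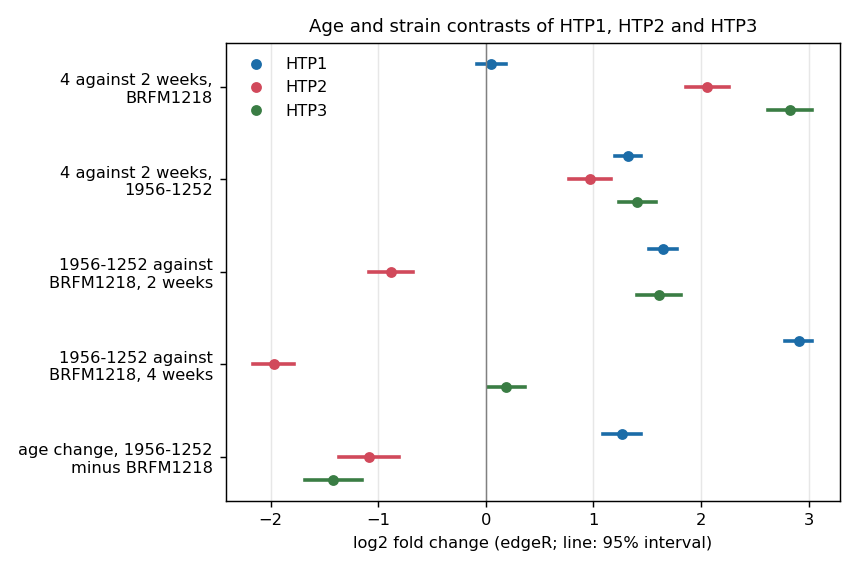
Log2 fold change of each gene in the 5 comparisons (points, edgeR) with 95% intervals (lines). HTP1 is near 0 with age in BRFM1218 (0.05) and positive in the other comparisons, while HTP2 is positive with age in both strains (2.06 and 0.97) and negative between strains (-0.88 and -1.97).

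The strains also differed in how far each of the 3 genes moved with age, and not in the same direction. Subtracting the log2 change in BRFM1218 from the one in 1956-1252 gave an interaction of 1.27 for HTP1 (95% interval 1.09 to 1.45, edgeR adjusted p = 1.72e-09). It was -1.09 for HTP2 (-1.36 to -0.81, adjusted p = 2.25e-06) and -1.42 for HTP3 (-1.68 to -1.15, adjusted p = 5.54e-08). The age ratio of HTP1 was thus 2.41 times as large in 1956-1252 as in BRFM1218, and those of HTP2 and HTP3 were 2.12 and 2.67 times as large in BRFM1218. Over all tested genes 52.9% were called in this comparison, 25.6% in the direction of HTP1 and 27.2% in that of HTP2 and HTP3.

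Between strains, HTP1 was higher in 1956-1252 at both ages, HTP2 was lower at both ages, and HTP3 was higher at 2 weeks. HTP1 was 3.12-fold higher in 1956-1252 at 2 weeks (95% interval 2.86 to 3.42, edgeR adjusted p = 5.41e-14) and 7.51-fold higher at 4 weeks (6.88 to 8.19, adjusted p = 2.39e-17). HTP2 was 1.85-fold higher in BRFM1218 at 2 weeks (log2 difference -0.88, SE 0.10, adjusted p = 1.57e-07) and 3.92-fold higher at 4 weeks (-1.97, SE 0.09, adjusted p = 1.02e-12). HTP3 was 3.05-fold higher in 1956-1252 at 2 weeks (2.65 to 3.51, adjusted p = 3.61e-11). In all of these the libraries of the strains did not overlap. The strain and age comparisons share libraries, so their values are not independent of one another. At 4 weeks the HTP3 libraries, 54.0 to 55.0 CPM in BRFM1218 and 59.7 to 64.5 CPM in 1956-1252, also stood apart, by 1.14-fold (1.01 to 1.29, adjusted p = 0.038). That call ended without BRFM1218 4-week replicate 1 (adjusted p = 0.0662) or replicate 3 (adjusted p = 0.0628), and without 1956-1252 4-week replicate 2 (adjusted p = 0.145) or replicate 3 (adjusted p = 0.0989). The strains differed in most genes, with 84.7% of all tested genes called at 2 weeks (44.4% higher and 40.4% lower in 1956-1252) and 85.5% at 4 weeks (44.9% higher and 40.6% lower). The 3 calls of 3 at each age are thus near the background.

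The size of each strain difference moved with the library scaling, because the scaling shifted all genes together. TMM multiplied plain CPM by 1.18 to 1.22 in BRFM1218 and by 0.812 to 0.849 in 1956-1252. With TMM the middle gene of all tested had a log2 difference of 0.09 at 2 weeks and 0.11 at 4 weeks, and with library size only of 0.60 and 0.66. Of called genes, 52.4% were higher in 1956-1252 at 2 weeks with TMM and 67.9% with library size only, and at 4 weeks 52.6% and 68.8%. Relative to this median, HTP1 was higher by 1.56 at 2 weeks and 2.80 at 4 weeks under TMM, RLE, upper quartile and library-size scaling alike. These scalings apply 1 factor per library, so their agreement relative to the median is built in. On the same footing HTP2 was at -0.97 and about -2.08, and HTP3 at 1.52 and about 0.08. Under these 4 scalings HTP3 at 4 weeks thus lay close to the middle gene. With offsets that remove a trend with expression level (cyclic loess) it was further off, at 0.34 against a median of 0.04 (edgeR adjusted p = 0.000758). HTP1 and HTP2 kept their directions under each of these scalings and under the cyclic loess offsets. With the loess offsets HTP1 was above the median by 1.94 at 2 weeks and 3.20 at 4 weeks, and HTP2 was at -0.85 and -1.93. The strain values assume that reads of the strains aligned equally well to each gene, which was not tested. The reference strain of the alignment is not given in the sources used here.

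**Figure D4:**
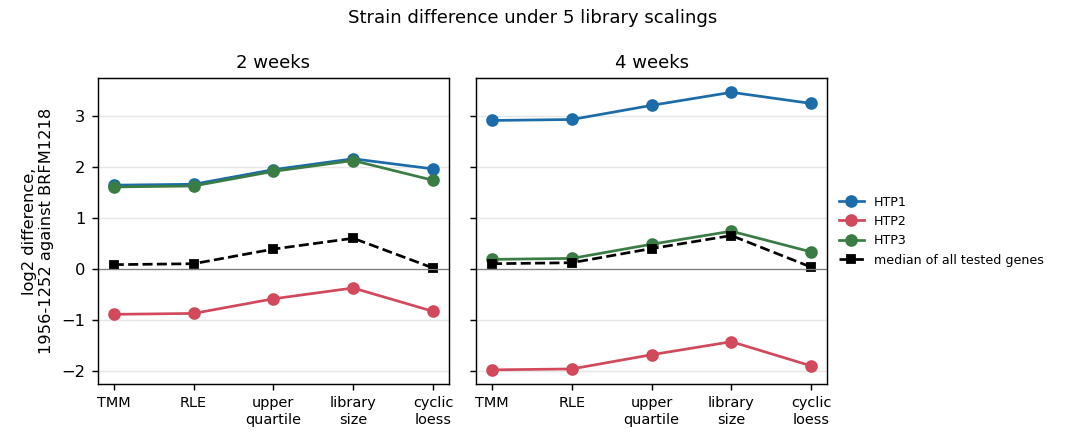
Log2 difference of 1956-1252 against BRFM1218 at 2 and 4 weeks under 5 library scalings, with the median of all tested genes (dashed). HTP1 stays above and HTP2 below that median throughout, and HTP3 at 4 weeks lies close to it with TMM (0.19 against 0.11) and library size only (0.74 against 0.66) and further above it with cyclic loess (0.34 against 0.04).

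The ratio of one gene to another within a library does not depend on library scaling. For the ratio of RPKM in each of 3 gene pairs, age labels were permuted within strain and strain labels within age, in two-sided exact permutation tests with 400 arrangements whose smallest possible p is 0.005, adjusted over the 6 tests. HTP3 gained on HTP2 with age in both strains, by 0.77 on the log2 scale in BRFM1218 and by 0.43 in 1956-1252 (mean 0.60, exact permutation p = 0.005, adjusted p = 0.01). The ages did not overlap in either strain. Its ratio to HTP2 was 0.444 to 0.636 in BRFM1218 at 2 weeks and 0.898 to 0.965 at 4 weeks, and 2.96 to 3.24 and 4.02 to 4.35 in 1956-1252. HTP2 was thus the higher of the pair in all 6 BRFM1218 libraries and HTP3 in all 6 libraries of 1956-1252, with a mean strain difference of 2.33 on the log2 scale (exact permutation p = 0.005, adjusted p = 0.01).

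HTP1 exceeded HTP2 by 1.74-fold to 2.23-fold in BRFM1218 at 2 weeks and by 10.3-fold to 14.8-fold over the libraries of 1956-1252. In BRFM1218 at 4 weeks HTP2 was instead 1.87-fold to 2.22-fold higher. The log2 ratio of HTP1 to HTP2 was higher in 1956-1252 by 2.52 at 2 weeks and 4.88 at 4 weeks (exact permutation p = 0.005, adjusted p = 0.01). Its age differences, -2.02 in BRFM1218 and 0.34 in 1956-1252, had opposite signs, and their mean of -0.84 did not pass (exact permutation p = 0.1, adjusted p = 0.1). The ratio of HTP1 to HTP3 lay at 3.11 to 3.96 in BRFM1218 at 2 weeks, 3.47 to 3.86 in 1956-1252 at 2 weeks and 3.34 to 3.62 at 4 weeks, ranges that overlap. In BRFM1218 at 4 weeks it was 0.492 to 0.596, below every other library. The age difference of this log2 ratio was -2.79 in BRFM1218 and -0.09 in 1956-1252 (mean -1.44, exact permutation p = 0.01, adjusted p = 0.015). Its strain difference was 0.02 at 2 weeks and 2.72 at 4 weeks, and their mean of 1.37 did not pass (exact permutation p = 0.05, adjusted p = 0.06). That mean passed without BRFM1218 2-week replicate 1 or replicate 2 (exact permutation adjusted p = 0.042 in each case). With 1 library left out there are fewer than 400 arrangements, so these p-values are not on the same footing as that of the full test.

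HTP2 and HTP3 are consecutive entries in the RefSeq table (assembly v1.0), while HTP1 is listed elsewhere. HTP2 and HTP3 both rose with age in each strain, where 33% of all tested genes were called higher in BRFM1218 and 25.1% in 1956-1252. HTP1, listed elsewhere, also rose in 1956-1252. The strain differences of HTP2 and HTP3 had opposite signs at both ages, though that of HTP3 at 4 weeks was small (0.19 on the log2 scale, against -1.97 for HTP2). Whether position in the genome bears on these changes was not tested. On the other side of HTP2 the table lists TRAVEDRAFT_52547, which was scarcely read, with group means between 0.115 and 0.84 CPM and no called age change (adjusted p = 0.41 in BRFM1218 and 0.783 in 1956-1252). The entry after HTP3 has no row in the deposited tables. HTP1 stands between TRAVEDRAFT_26966 and TRAVEDRAFT_162430. TRAVEDRAFT_26966 rose with age in BRFM1218, from 6.02 ± 0.15 to 20.2 ± 1.74 CPM (edgeR adjusted p = 1.31e-10), and was at 31.0 ± 3.01 and 32.9 ± 0.236 CPM in 1956-1252 (adjusted p = 0.427). TRAVEDRAFT_162430 was at 43.1 ± 1.61 and 38.5 ± 9.24 CPM in BRFM1218 and at 65.0 ± 1.59 and 72.5 ± 0.415 CPM in 1956-1252, with no called age change (adjusted p = 0.238 and 0.255). Neither neighbour thus had the pattern of HTP1, which was called with age in 1956-1252 and not in BRFM1218.

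The 3 genes were also unlike one another over the 12 libraries. Pearson's r of log2 CPM was -0.475 between HTP1 and HTP2, 0.515 between HTP1 and HTP3, and 0.448 between HTP2 and HTP3. These libraries share strain and age, so r describes 4 groups rather than 12 separate points, and no p is given. Closer patterns were found among 8307 other genes with a mean of at least 10 CPM. For HTP1 they were TRAVEDRAFT_75022 (r = 0.997), TRAVEDRAFT_52789 (0.997) and TRAVEDRAFT_55222 (0.995). TRAVEDRAFT_75022 rose from 41.7 ± 2.21 to 543 ± 18.5 CPM with age in 1956-1252 (3.70 on the log2 scale, against 1.32 for HTP1) and was at 2.41 ± 0.283 and 2.81 ± 0.389 CPM in BRFM1218. TRAVEDRAFT_55222 was closer to HTP1 in level, at 19.2 ± 1.34 and 21.1 ± 2.97 CPM in BRFM1218 and 100.9 ± 6.16 and 272 ± 4.01 CPM in 1956-1252.

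For HTP2 the nearest were TRAVEDRAFT_53125 (r = 0.997), TRAVEDRAFT_67386 (0.995) and TRAVEDRAFT_73474 (0.992). TRAVEDRAFT_53125 was at 11.3 ± 1.24 and 56.3 ± 4.87 CPM in BRFM1218 and at 5.95 ± 0.681 and 11.8 ± 0.579 CPM in 1956-1252, below HTP2 in CPM in all 4 groups. For HTP3 they were TRAVEDRAFT_34683 (r = 0.989), TRAVEDRAFT_163064 (0.988) and TRAVEDRAFT_53859 (0.987). TRAVEDRAFT_53859 went from 11.3 ± 1.29 to 84.2 ± 6.36 CPM with age in BRFM1218 and from 26.2 ± 1.78 to 82.8 ± 0.979 CPM in 1956-1252. The gene table gives no symbol for these genes, and the sources used here do not say what they encode. Among genes with a symbol, the nearest to HTP1 were DyP2 (r = 0.974), a dye-decolorizing peroxidase gene, and LDO2 (0.933), whose symbol stands for an enzyme of the linoleate diol synthase type. HTP3 was nearest to the lignin peroxidase gene LiP1 (0.835) and the laccase gene TvLac3 (0.767). HTP2 had no close match there, with 0.635 for the versatile peroxidase gene VP2 and 0.544 for the dye-decolorizing peroxidase gene DyP1.

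The other 39 genes with a symbol are oxidative enzymes as well, and all were tested. With age, 17 of them were called higher and 12 lower in BRFM1218, with a median log2 fold change of 0.43 against 0.06 for all tested genes, of which 33% were called higher and 27.4% lower. In 1956-1252, 16 were higher and 0 lower, with a median of 0.43 against 0.01 for all tested genes, of which 25.1% were called higher and 23.4% lower. The counts of single lists below are to be read against these same shares. The medians of the 3 haem-thiolate peroxidases were 2.06 in BRFM1218 and 1.32 in 1956-1252. DyP1 and DyP2, which encode haem peroxidases of another fold, shared neither pattern fully. DyP2 rose with age in both strains, by 1.20 and 2.91 on the log2 scale, and DyP1 fell by 1.47 in BRFM1218 and rose by 1.18 in 1956-1252. Of 10 lignin peroxidases, 8 were higher and 0 lower with age in BRFM1218, where 33% of all tested genes were higher, and 0 were called in 1956-1252 (median 0.17), where 48.6% of all tested genes were called. LiP1, with the highest mean CPM of them over the 12 libraries, rose from 5.61 ± 0.257 to 11.99 ± 1.98 CPM in BRFM1218 and was at 14.9 ± 1.18 and 16.5 ± 1.21 CPM in 1956-1252 (edgeR adjusted p = 0.325).

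**Figure D5:**
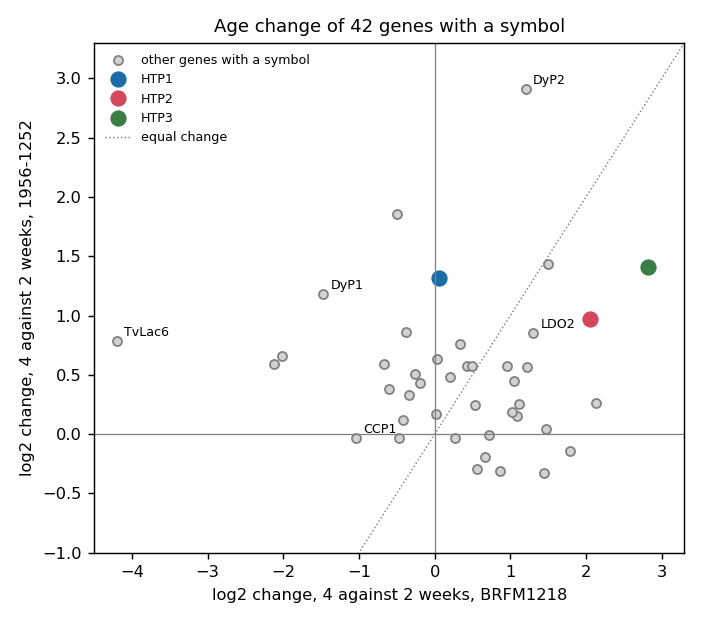
Log2 change from 2 to 4 weeks in BRFM1218 (x axis) and in 1956-1252 (y axis) for the 42 genes with a symbol, with the line of equal change dotted. HTP1 lies near 0 on the x axis (0.05) and at 1.32 on the y axis, and HTP2 and HTP3 lie right of the line, at 2.06 and 2.82 in BRFM1218 and 0.97 and 1.41 in 1956-1252.

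Of 13 manganese peroxidases, 4 were higher and 2 lower in BRFM1218 and 4 higher and 0 lower in 1956-1252, with medians of 0.27 and 0.33, against 33% higher and 27.4% lower and 25.1% higher and 23.4% lower among all tested genes. MnP1s, with the highest mean of them over the 12 libraries, fell by 0.34 on the log2 scale in BRFM1218 and rose by 0.33 in 1956-1252 (adjusted p = 0.0293 and 0.0264 by edgeR). Of 3 versatile peroxidases, 1 was higher and 2 lower in BRFM1218, and 2 were higher and 0 lower in 1956-1252. VP2, with the highest mean of all class II peroxidases over the 12 libraries, though below MnP1s in 1956-1252 at both ages, fell by 0.26 in BRFM1218 and rose by 0.50 in 1956-1252. Of 8 laccases and multicopper oxidases, copper enzymes that oxidise phenols or iron, 2 were higher and 5 lower in BRFM1218 and 6 higher and 0 lower in 1956-1252, beside the same shares of all tested genes. TvLac6 had the highest mean of them over the 12 libraries through BRFM1218 at 2 weeks alone. With age it fell by 4.20 on the log2 scale in BRFM1218 and rose by 0.785 in 1956-1252 (edgeR adjusted p = 0.000199). Outside BRFM1218 at 2 weeks it was below TvLac3. CCP1, a gene named as a cytochrome c peroxidase, the mitochondrial scavenger of hydrogen peroxide in yeast, fell by 1.03 in BRFM1218 and was not called in 1956-1252 (-0.04, adjusted p = 0.60). The linoleate diol synthase-type genes did not move alike. LDO2 rose in both strains, by 1.30 and 0.85 (interaction -0.45, edgeR adjusted p = 5.91e-06), while LDO1 fell by 0.37 in BRFM1218 and rose by 0.86 in 1956-1252 (interaction 1.23).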

How the data were processed

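Per the file headers, the authors deposited, for each library and gene model, a count of uniquely aligned reads, a count of all reads and an RPKM value. From the values, the authors' RPKM is the all-read count divided by the column total and by 1 length per gene, with implied lengths equal in all files within a relative difference of 2.6e-07. Aligner, counter, genome build and strand use are not given in the sources used here. Protein numbers were matched to RefSeq locus tags of the Trametes versicolor v1.0 assembly for 14250 models. The table was used for names and neighbours only. Further haem-thiolate peroxidase-like proteins and promoter motifs, which had been planned, were not analysed here.

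Counts of all reads were fitted with edgeR 4.0.16 in R 4.3.3 (TMM, filterByExpr, 12648 genes kept and 1648 removed, 1 mean per group, 8 residual degrees of freedom, common biological coefficient of variation 8.27%). Standard errors and 95% intervals came from the fitted model. Alternatives used DESeq2 1.42.0, limma 3.58.1 on log2(RPKM + 1) and log2(RPKM + 0.1), other scalings, no filter, unique reads, fewer libraries and a replicate block. The fit and the permutation were also run on simulated data, and the outcome is not given here. The lowest chi-square per degree of freedom between replicates was 5.08, so no pair of libraries agreed within sampling noise. The members, lists and tests were chosen with earlier results of these data known. Genes other than members are named by rule: the 3 genes, and the 2 with a symbol, with the highest r to each member, the adjacent genes, and the member of each list with the highest mean CPM. DyP2, LDO1 and, beside TvLac6, TvLac3 are named as further list members.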

Additional observations from a re-analysis of the deposited data

Results flagged for a closer look

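The age change differed between strains by a test of the difference itself in HTP1 (1.27 on the log2 scale, 1956-1252 minus BRFM1218), in HTP2 (-1.09) and in HTP3 (-1.42), with edgeR adjusted p-values of 1.72e-09, 2.25e-06 and 5.54e-08. HTP1 had the larger rise in 1956-1252, and HTP2 and HTP3 in BRFM1218. Leaving out each of the 12 libraries in turn gave 1.20 to 1.33 for HTP1, -1.20 to -0.999 for HTP2 and -1.59 to -1.35 for HTP3.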

How the results depend on the processing

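Direction and call were kept for 13 of the 15 age, strain and interaction results under every alternative tried, which were 11 that keep all libraries (10 for the interaction) and 12 that leave out 1 library each. The HTP1 age change in BRFM1218, not called, ranged from -0.03 to 0.10 when 1 library was left out, with the sign turned (-0.031) without 4-week replicate 3. The HTP3 strain difference at 4 weeks ranged from 0.15 to 0.21 (adjusted p 0.0083 to 0.145) and lost its call in 4 of 12 such fits. Across the other alternatives it ranged from 0.18 to 0.74 (adjusted p 1.06e-07 to 0.0457). The HTP2 strain difference at 2 weeks ranged from -0.88 to -0.33 across alternatives that keep all libraries, the smallest on log2(RPKM + 1). The strain difference in the ratio of HTP1 to HTP3 ranged from 1.31 to 1.41 with 1 library left out. It passed in 2 of 12 such tests, which have fewer arrangements than the full test. The other 5 ratio results kept direction and call. Counts of called genes stayed within 1.5 times. No pairing of libraries by replicate number was seen. Correlations of same-numbered deviations from the group means ran from -0.206 to 0.0972, and none of 6 group pairs had all above 0.1. With 3 libraries per group this cannot settle whether same-numbered cultures were handled together, which the labels do not say. With a replicate block, 7515 genes were called with age in BRFM1218 and 6000 in 1956-1252, against 7643 and 6141, and HTP3 at 4 weeks was at 0.19 (adjusted p = 0.0457). No call on the 3 genes changed with the block.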
